A study of Mus musculus with 10 samples.

Results

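The insulin-like growth factor (IGF) axis was described in 10 genes: the ligand gene Igf1, its receptor gene Igf1r, 6 binding protein genes (Igfbp2, Igfbp3, Igfbp4, Igfbp5, Igfbp6 and Igfbp7) and the protease genes Pappa and Pappa2. The genes were chosen by name, with their fold changes between BPS and DMSO already known from these libraries. Their counts, fold changes and calls for that contrast are therefore a description and support nothing further. All 10 were found among 32903 genes with assigned counts, and all 10 passed the filter on low counts that left 14597 genes.

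The libraries came from preadipocytes, the precursor cells of fat cells, of inguinal subcutaneous fat (iSAT) of male WT C57 BL6 mice. In 5 libraries the cells had received the vehicle DMSO, and in 5 they had received 2.5 µM BPS (bisphenol S, an analogue of bisphenol A) dissolved in DMSO, so both groups were exposed to DMSO. The exposure time and the age of the mice are not given in the sources used here. Nothing there says that replicates came from different mice or cultures, so any p-value measures only the spread between these libraries, which may be technical. The study's title asks about reactive oxygen species in the adipogenic action of bisphenols.

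IGF-I is a secreted growth factor that acts on cells through a receptor tyrosine kinase and, in fat tissue, is known for promoting both growth and differentiation of preadipocytes. Binding proteins hold IGFs in the fluid and matrix around cells and can keep them from the receptor. The pappalysins PAPP-A and PAPP-A2 cut certain binding proteins and so free the bound IGF, and stanniocalcins inhibit the pappalysins.

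Depth was similar across libraries, from 37920689 to 42717227 estimated counts. All 11 preadipocyte markers examined (among them Pdgfra, Pdgfrb and Dlk1) had more than 3 counts in every library, and 2 of them, Cd34 and Thy1, rose. Of all genes tested, 3.06% were called higher. The other preadipocyte markers were not called and lay on either side. Pdgfra went from 903.8 ± 14.3 CPM in DMSO to 863.3 ± 22.8 CPM in BPS. Dpp4 went from 2.45 ± 0.288 to 2.13 ± 0.214 CPM, and Pi16 from 2.02 ± 0.237 to 2.21 ± 0.231 CPM (SD, n = 5 each). Of the 6 mature adipocyte markers, 5 had at most 3 counts in any library, Adipoq among them, and Lep was at 0 in all. Markers of other cell types were present at low summed levels: 9.41 to 15.3 CPM in DMSO and 10.3 to 18.2 CPM in BPS for 6 macrophage genes, and 17 to 22.4 and 16.4 to 22 CPM for 5 endothelial genes. CPM is the count scaled to the size of its library with TMM factors. Of the macrophage genes 3 had more than 3 counts in every library, and Csf1r was at 0 in all. The 5 mural cell markers all had more than 3 counts in every library. They summed to 56.3 to 61.6 CPM in DMSO and 61.9 to 70.6 CPM in BPS, and 1 of them, Cspg4, rose. The 5 mesothelial markers, 2 of them with more than 3 counts in every library, summed to 9.06 to 11 CPM in DMSO and 11 to 12.9 CPM in BPS. Of these, Krt19 held most of the sum and rose, from 9.34 ± 0.753 CPM under DMSO to 11.2 ± 0.689 CPM under BPS. Wt1 lay the other way without a call, averaging 0.849 ± 0.12 CPM under DMSO and 0.569 ± 0.188 CPM under BPS (SD, n = 5 per group). Msln and Upk3b were at 0 in all libraries. The part of either list in the values below was not tested. In bulk RNA, more cells of a type and more RNA per cell cannot be told apart. Library codes in the labels number all DMSO libraries before all BPS libraries, so a batch that followed this order and the treatment cannot be told apart.

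Of the 10 genes, 3 had an adjusted p under 0.05 in edgeR's quasi-likelihood fit over all genes: Pappa2, Igfbp5 and Igfbp7, all higher under BPS. Among all genes tested 4.88% had such a call, 3.06% higher and 1.82% lower. Of those calls 62.8% were higher, against 45.9% when libraries were scaled by their size alone. The log2 fold change was positive in 9 of the 10 genes, with Igfbp4 the exception, against 7327 of 14597 genes tested. Its median was 0.14 in the 10 genes and 0.0003 over all genes. In 4 of the 10 genes the ranges of both groups were apart (Igf1r, Igfbp7 and Pappa2 higher, Igfbp4 lower under BPS), as in 6.9% of all genes tested. Since the genes were chosen on this contrast, nothing is read from these shares.

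**Figure D1:**
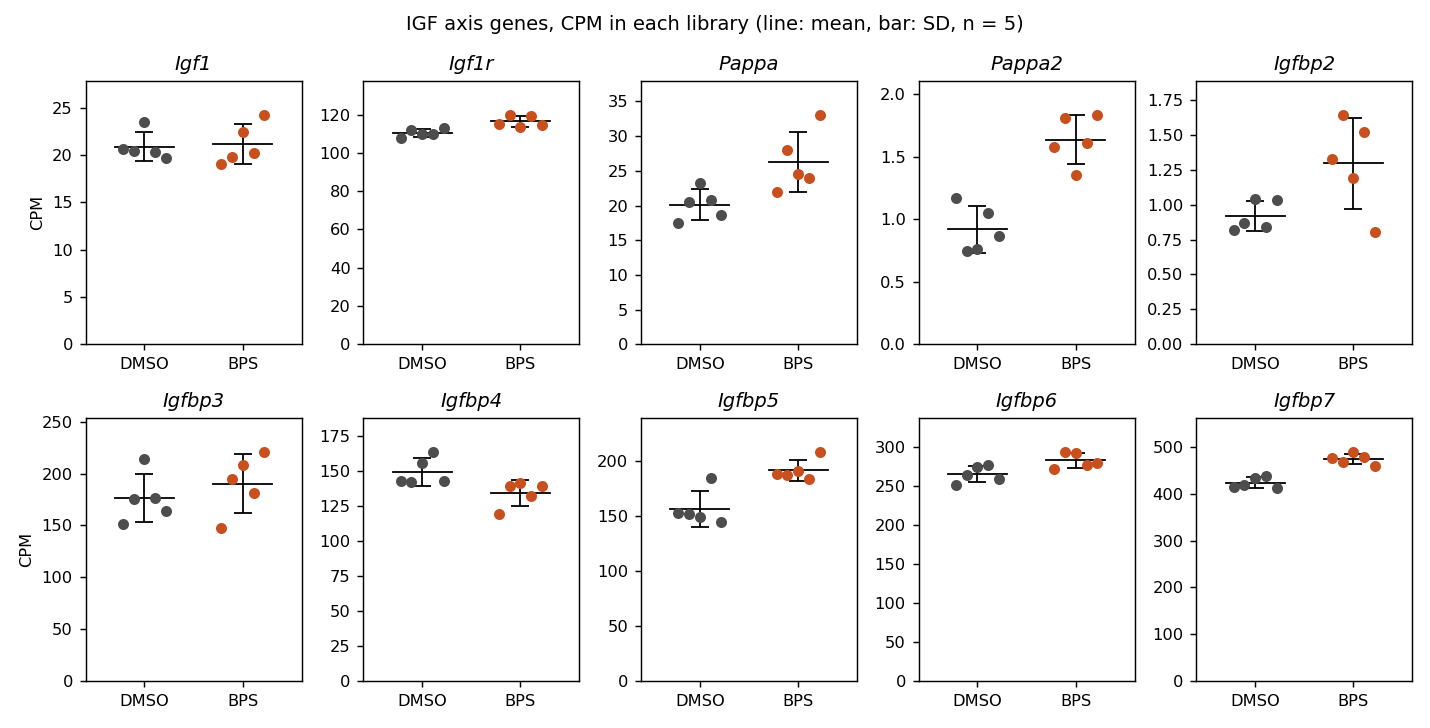
CPM of each IGF axis gene (vertical axis, from 0) in the 5 DMSO and 5 BPS libraries; points are libraries, the horizontal line is the group mean and the bar the SD. Pappa2 and Igfbp7 separate completely, as do Igf1r and Igfbp4 by narrow margins. Igfbp5 does so except for DMSO replicate 4 at 184.8 CPM, and Igfbp4 is the gene that lies lower under BPS.

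Igf1, the gene of the secreted ligand, stood at 20.6, 20.4, 23.5, 20.3 and 19.7 CPM in DMSO replicates 1 to 5 and at 19.1, 19.8, 22.4, 20.2 and 24.2 CPM in BPS replicates 1 to 5. The groups overlapped throughout, and 2 of 5 BPS libraries lay above the DMSO mean. The log2 fold change was 0.016 (SE 0.07), with a 95% interval from -0.136 to 0.168, and its sign changed under 4 of 19 alternative settings. The table split Igf1 among 14 RefSeq transcripts. A transcript of 7052 bases took 52.5 ± 8.15% of the Igf1 counts in DMSO and 61.3 ± 11.5% in BPS (SD, n = 5 each). One of 1673 bases took 34.9 ± 9.88% and 28.5 ± 10.7%. Neither transcript was called, and the shares depend on how the counting program divided shared reads.

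Igf1r encodes the receptor tyrosine kinase that binds IGF-I. It stood at 108.1, 111.9, 109.7, 109.8 and 112.9 CPM in DMSO and at 115.1, 119.7, 113.4, 119.5 and 114.9 CPM in BPS. Every BPS library was above every DMSO library, by a narrow margin: the highest DMSO value was 112.9 CPM and the lowest BPS value 113.4 CPM. The spread within groups was small, with a coefficient of variation of 1.73% in DMSO and 2.47% in BPS. The difference was 1.05-fold (log2 fold change 0.08, SE 0.02, 95% interval 0.03 to 0.12) and was not called. It was called with upper-quartile scaling and in the DESeq2 Wald test, at log2 fold changes of 0.08 in both, and it was 0.19, not called, when accessions were matched by exact version.

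Pappa2, the gene of the pappalysin PAPP-A2, which cuts IGFBP-3 and IGFBP-5, had the largest fold change of the 10 genes. Its level was 1.17, 0.742, 0.761, 1.05 and 0.866 CPM in DMSO and 1.58, 1.81, 1.35, 1.61 and 1.83 CPM in BPS. All 5 BPS libraries lay above all 5 DMSO libraries. Few counts lie behind these values, from 29 to 43 in a DMSO library and from 50 to 66 in a BPS library. The gene rose 1.78-fold (log2 fold change 0.83, SE 0.15, 95% interval 0.51 to 1.16). When transcripts were tested without summing, neither of its 2 transcripts was called: the curated one had 0 to 40 counts in DMSO and 30 to 57 in BPS, and the predicted one 0 to 36 and 0 to 34. Their log2 fold changes had opposite signs, 2.10 (SE 0.998) and -0.79 (SE 1.36). The curated one took 29.4 ± 40.6% of the Pappa2 counts in DMSO and 79.6 ± 22.9% in BPS (SD, n = 5 each). Its counts were 7, 0, 8, 40 and 2 in DMSO replicates 1 to 5 and 42, 30, 50, 57 and 56 in BPS. These shares rest on few counts and on how the counting program divided shared reads, so no shift between transcripts is read from them. With accessions matched by exact version the gene could not be tested.

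Pappa encodes PAPP-A, the protease known for cutting IGFBP-4 in the presence of IGF. Its level was 17.5, 20.5, 23.3, 20.8 and 18.6 CPM in DMSO and 22, 28.0, 24.5, 24.0 and 33.0 CPM in BPS. Of the 5 BPS libraries, 4 lay above all DMSO libraries, and BPS replicate 1 lay below DMSO replicate 3. The 1.305-fold difference (log2 fold change 0.38, SE 0.11, 95% interval 0.15 to 0.62) was not called. It was called, at a log2 fold change of 0.44, when BPS replicate 1 was left out, and in the DESeq2 Wald test (0.38). Pappa had 644 to 1194 counts per library.

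**Figure D2:**
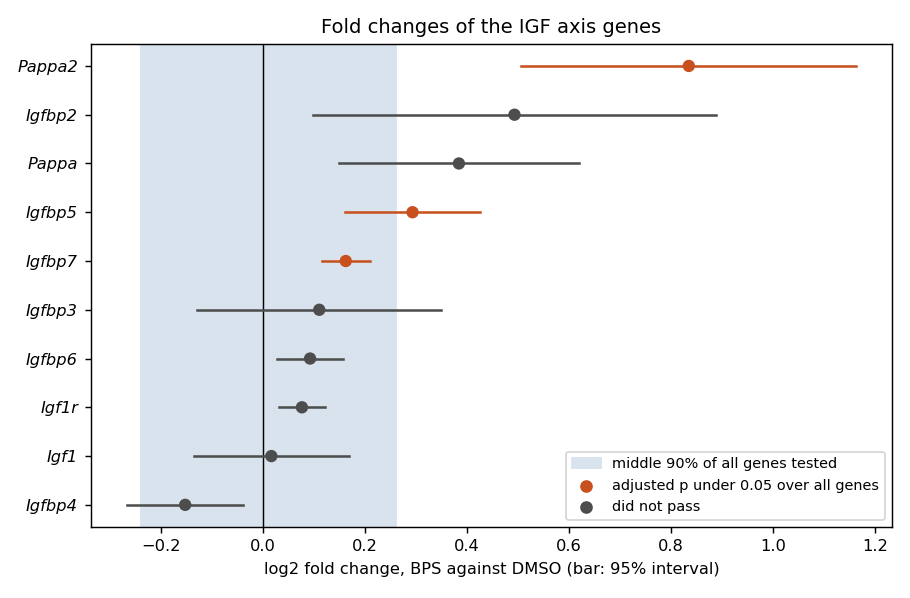
Log2 fold change of BPS against DMSO (horizontal axis) for each IGF axis gene, with its 95% interval; the shaded band holds the middle 90% of all genes tested, from -0.24 to 0.26. Pappa2, Igfbp2, Pappa and Igfbp5 lie to the right of the band, and the 3 coloured genes are those called.

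Among the binding protein genes, Igfbp5 and Igfbp7 rose and the other 4 were not called. IGFBP-5 binds IGFs and the extracellular matrix, and is a substrate of both pappalysins. Igfbp5 stood at 152.4, 152.2, 148.8, 184.8 and 144.4 CPM in DMSO and at 187.9, 187.6, 191.2, 183.9 and 208.3 CPM in BPS. DMSO replicate 4 lay within the BPS range, just above BPS replicate 4, and the other 4 DMSO libraries lay below every BPS library. The gene rose 1.225-fold (log2 fold change 0.29, SE 0.06, 95% interval 0.16 to 0.42), and the log2 fold change was 0.36, also called, without DMSO replicate 4. The gene has 1 transcript in the table, and that transcript was not called when transcripts were tested without summing, where many more features were tested.

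IGFBP-7 differs from the classical binding proteins in its low affinity for IGFs. Igfbp7 stood at 416.0, 419.3, 433.9, 438.2 and 413.4 CPM in DMSO and at 477.1, 467.8, 489.7, 478.1 and 460.4 CPM in BPS. The groups did not overlap, and the gap between them, from 438.2 to 460.4 CPM, was wider than the SD within either group (11.2 and 11.1 CPM). The rise was small, 1.12-fold (log2 fold change 0.16, SE 0.02, 95% interval 0.12 to 0.21). The call held under all 19 gene-level alternatives tried, with log2 fold changes of 0.15 to 0.17, and in the transcript test. One of its 2 transcripts held 99.3 ± 0.13% of the Igfbp7 counts in DMSO and 99.2 ± 0.215% in BPS (SD, n = 5 each).

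Igfbp4 encodes a binding protein known mainly as an inhibitor of IGF action and as the substrate of PAPP-A. It stood at 142.8, 142.3, 156.0, 163.8 and 143.2 CPM in DMSO and at 119.5, 139.4, 141.9, 132.4 and 139.8 CPM in BPS. Every BPS library was below every DMSO library, although BPS replicate 3 and DMSO replicate 2 were only 141.9 and 142.3 CPM. Its log2 fold change of -0.15 (SE 0.05, 95% interval -0.27 to -0.04) was not called, nor was it under the 18 gene-level alternatives that could test it.

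Promoter sequences are shown for the 2 binding protein genes that rose and, as a short stretch, for Igfbp4, whose fold change had the other sign. They come from RefSeq (GRCm38.p6), whose table held 10 windows for 9 of the genes and none for Pappa. Both Igfbp5 and Igfbp7 lie on the minus strand. The window of Igfbp7 is the 250 bases before its annotated start, chr5:77408046-77408295. That of Igfbp5, chr1:72874885-72875115, stops at the first exon in GENCODE M21 and so holds 231 bases. The stretch of Igfbp4, on the plus strand, is chr11:99041204-99041233. Each reads 5′ to 3′ along its gene, and capitals mark motifs found on either strand: GC boxes and the receptor core in Igfbp7, and the TATA box in Igfbp4, as spelled out in the next paragraph.
Igfbp7: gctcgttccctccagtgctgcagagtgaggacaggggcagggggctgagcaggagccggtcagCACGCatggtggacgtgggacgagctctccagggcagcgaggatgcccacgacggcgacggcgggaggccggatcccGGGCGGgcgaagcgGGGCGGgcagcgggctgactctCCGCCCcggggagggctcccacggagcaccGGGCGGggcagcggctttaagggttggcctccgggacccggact
Igfbp5: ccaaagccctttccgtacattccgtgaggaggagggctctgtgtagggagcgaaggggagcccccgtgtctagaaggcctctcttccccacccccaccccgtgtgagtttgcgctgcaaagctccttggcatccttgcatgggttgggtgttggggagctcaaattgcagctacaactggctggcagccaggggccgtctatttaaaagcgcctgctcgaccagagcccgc
Igfbp4: ccagggggccggTATAAAgtcccgggagcc

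The motifs were searched on both strands in the 250 bases before each start. They were TATAAA (the TATA box), GGGCGG (the GC box), GCGTG (the core bound by the aryl hydrocarbon receptor), CACGTG (the E-box) and TGACTCA (the AP-1 site), and none of them contains another. Igfbp7 held 4 GC boxes and 1 receptor core. Igfbp5 held none of the 5 motifs in these exact letters, and Igfbp4 held a TATA box that begins 28 bases before the start. Variant spellings of the motifs were not searched, so an absence covers only the letters given. Over all 32851 windows of this length, 32.7% held a GC box, 28.2% the receptor core, 12.4% a TATA box, 6.02% the E-box and 4.46% the AP-1 site. Of the 10 windows of the IGF axis genes, 3 held a GC box (Igf1r, Igfbp2 and Igfbp7), 6 the receptor core (Igf1, Igf1r, Igfbp2, Igfbp3, Igfbp7 and Pappa2) and 2 a TATA box (Igfbp4 and Igfbp6). The E-box and the AP-1 site were each in 1 window, of Igfbp2. A match describes letters and is not a binding site.

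Igfbp2, the gene of a binding protein with affinity for both IGFs, had few counts. It stood at 0.816, 0.87, 1.04, 0.842 and 1.03 CPM in DMSO and at 1.33, 1.64, 1.19, 1.52 and 0.803 CPM in BPS, on 29 to 57 counts per library. In BPS, 4 libraries lay above all DMSO libraries and replicate 5 lay below all of them. The log2 fold change of 0.49 (SE 0.18, 95% interval 0.10 to 0.89) was not called, and without BPS replicate 5 it was 0.62 and called. Its 2 transcripts took 58.7 ± 11.2% and 41.3 ± 11.2% of its counts in DMSO, and 72.4 ± 15.7% and 27.6 ± 15.7% in BPS (SD, n = 5 each).

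Igfbp3 encodes the main IGF carrier of the circulation. Its coefficient of variation was the highest of the binding protein genes in DMSO (13.2%), and in BPS (14.9%) only that of Igfbp2 was higher (25.1%). It stood at 151.6, 175.6, 214.0, 176.5 and 164.1 CPM in DMSO and at 147.3, 194.9, 207.9, 181.0 and 220.8 CPM in BPS. BPS held both the highest and the lowest value. Its log2 fold change was 0.11 (SE 0.11, 95% interval -0.13 to 0.35), within the spread between replicates, and ran from 0.05 without BPS replicate 5 to 0.19 without DMSO replicate 3 or BPS replicate 1.

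Igfbp6, the gene of a binding protein that prefers IGF-II, stood at 252.3, 264.7, 274.6, 277.8 and 259.6 CPM in DMSO. In BPS it stood at 272.9, 294.1, 292.6, 277.4 and 280.0 CPM, with 3 of 5 libraries above all DMSO libraries. A log2 fold change of 0.09 (SE 0.03, 95% interval 0.03 to 0.16) was not called.

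Levels were compared between genes as CPM per kilobase, using the mean GENCODE M21 length of each gene's transcripts weighted by counts. In DMSO, Igfbp7 was highest at 380.0 ± 9.99 CPM per kilobase, followed by Igfbp6 at 239.0 ± 9.47 and Igfbp3 at 72.9 ± 9.65 (SD, n = 5). Igfbp4 and Igfbp5 had 39.1 ± 2.56 and 26.1 ± 2.69 CPM per kilobase. The receptor gene Igf1r had 9.68 ± 0.167, Igf1 4.17 ± 0.297, Pappa 1.83 ± 0.201, Igfbp2 0.763 ± 0.0894 and Pappa2 0.0965 ± 0.0197 CPM per kilobase. No 2 neighbours in this order overlapped in DMSO. In BPS the order was the same, but Igfbp4 (35.1 ± 2.4) and Igfbp5 (31.9 ± 1.6 CPM per kilobase) overlapped. A length was known for transcripts holding 58.3% of the counts of Igf1r, 61.6% of Pappa2, 85.4% of Igfbp3 and 91.5% of Igf1, and for all counts of the other 6 genes, so the levels of those 4 genes are approximate.

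**Figure D3:**
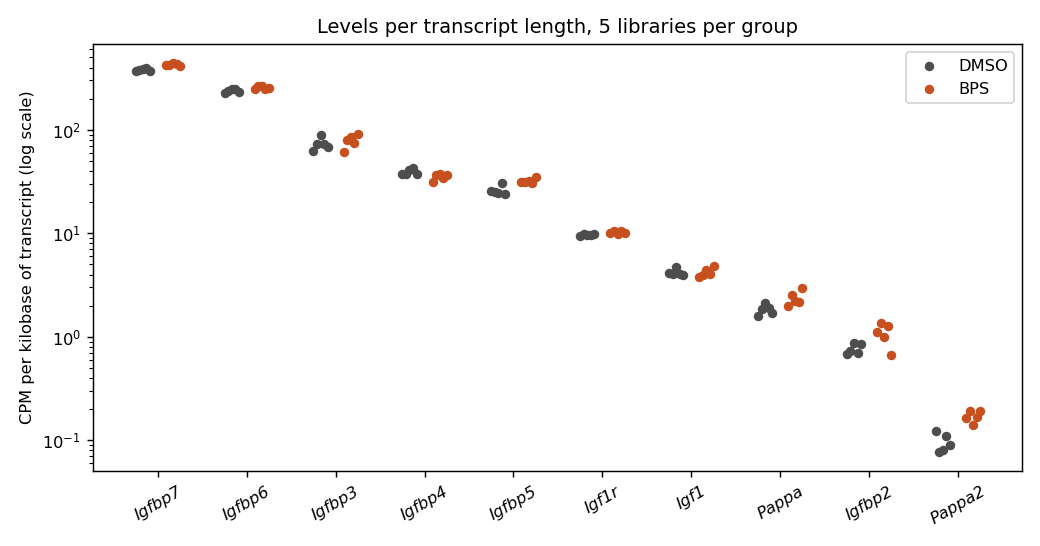
CPM per kilobase of transcript (vertical axis, log scale) of the IGF axis genes in order of their DMSO mean, with 1 point per library. Levels run from 380.0 CPM per kilobase for Igfbp7 to 0.0965 for Pappa2 in DMSO, and the 2 groups of a gene lie closer together than most neighbouring genes.

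Within groups, several of the genes were high or low in the same libraries. DMSO replicate 3 was the highest DMSO library for Igf1, Igfbp2, Igfbp3 and Pappa, and DMSO replicate 4 for Igfbp4, Igfbp5, Igfbp6 and Igfbp7. BPS replicate 5 was the highest BPS library for Igf1, Igfbp3, Igfbp5, Pappa and Pappa2, and the lowest for Igfbp2 and Igfbp7. BPS replicate 1 was the lowest BPS library for Igf1, Igfbp3, Igfbp4, Igfbp6 and Pappa, and DMSO replicate 1 the lowest DMSO library for Igf1r, Igfbp2, Igfbp3, Igfbp6 and Pappa. On the log2 scale, Igfbp3 deviated from its group mean by 0.29 in DMSO replicate 3 and by -0.36 in BPS replicate 1, and Pappa by 0.22 and -0.25. Igf1r and Igfbp7 deviated by at most 0.05 in any library. In DMSO, Pappa2 was highest in replicate 1 (a deviation of 0.37), the lowest library for Pappa (-0.19). Pappa2 had only 29 to 43 counts in a DMSO library, so nothing is read from that difference. How often each library was highest or lowest over all genes was not counted. Nothing particular to the IGF axis genes is therefore read from these ranks. Over genes with enough counts, chi-square over degrees of freedom of BPS replicate 1 against BPS replicates 2 to 5 was 8.39, 6.53, 5.1 and 8.77. It was 4.4 to 5.49 between the other BPS libraries. What set these libraries apart was not tested.

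**Figure D4:**
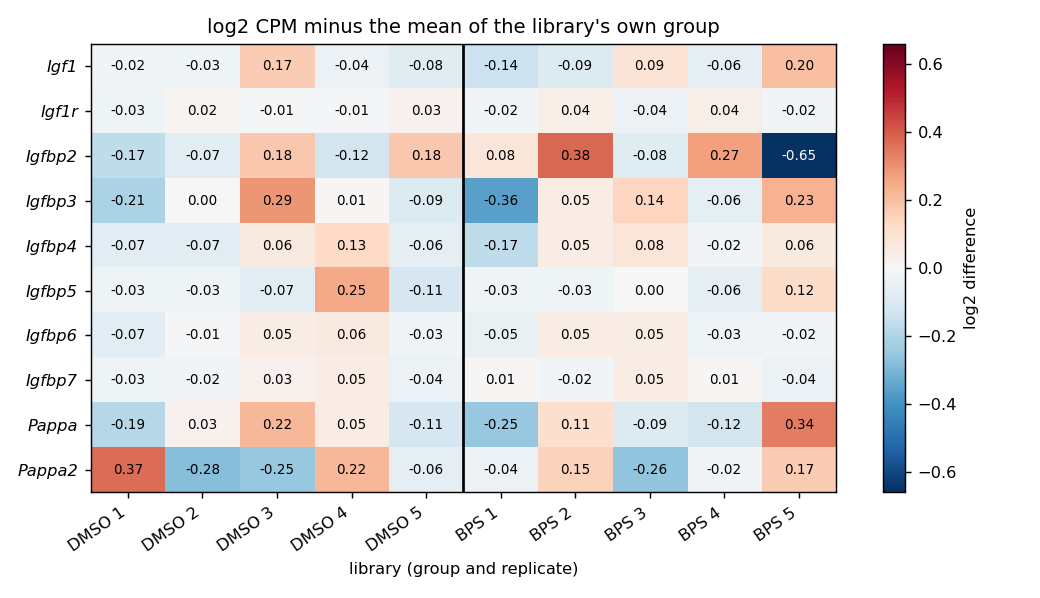
Difference of each library's log2 CPM (columns) from the mean of its own group for each IGF axis gene (rows); red is above and blue below the group mean. Igf1, Igfbp3 and Pappa are red in DMSO replicate 3 and BPS replicate 5 and blue in BPS replicate 1, and Igfbp2 is lowest in BPS replicate 5 at -0.65.

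Of the 10 genes, Pappa2 had the largest called rise, and no fall was called. Among 12422 other genes with a mean of at least 1 CPM and no library at 0, the 3 whose standardised log2 CPM lay closest to that of Pappa2 over the 10 libraries were Gm32255, Ddx21 and Cpb1. Their root-mean-square differences from it were 0.296, 0.31 and 0.32 SD, where the median gene had 1.342 SD. Ddx21, an RNA helicase gene, went from 134.3 ± 1.17 to 143.1 ± 2.38 CPM (SD, n = 5 each). Standardising removes the size of a difference, so the measure compares the pattern over libraries only. That pattern includes the split between BPS and DMSO, on which Pappa2 was chosen. Any gene with a clear rise under BPS therefore comes close, and nothing is read from the likeness.

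The rest of the pathway was followed in 54 other genes, of which 47 were tested. Of these, 2 were called higher, 1 lower and 44 neither, where 4.88% of all genes tested were called. The median log2 fold change of the 47 was -0.0021, against 0.0003 over all genes, and 22 of 47 were positive.

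The other ligand gene, Igf2, ranged from 12.9 to 13.8 CPM under DMSO and from 11.3 to 13.3 CPM under BPS. Its log2 fold change was -0.11 with an SE of 0.05 (edgeR, adjusted p = 0.243). Igfbp1, which lies beside Igfbp3 in the genome, had 0 counts in every library, and Igfals, the gene of the third part of the circulating IGF complex, had 0 to 10 counts. The clearance receptor gene Igf2r averaged 273.0 ± 9.16 CPM under DMSO and 275.4 ± 4.8 CPM under BPS, and the insulin receptor gene Insr averaged 43.5 ± 1.55 and 43.2 ± 0.99 CPM (SD, n = 5 each). Neither was called (adjusted p = 0.836 and 0.919 by edgeR). The stanniocalcin gene Stc1 stood at 4.74 ± 0.258 and 4.75 ± 0.343 CPM and Stc2 at 28.9 ± 1.64 and 30.4 ± 1.81 CPM (adjusted p = 0.993 and 0.479 by edgeR). The proteases Htra1, Htra3, Htra4, Adam12, Adam28 and Ctsd, which can also cut binding proteins, gave no call. Ctsd came nearest, at 509.7 ± 9.82 CPM under DMSO and 534.0 ± 13.5 CPM under BPS (edgeR, adjusted p = 0.0825), and it was called in the DESeq2 Wald test and without BPS replicate 5.

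Inside the cell, Grb14 encodes an adaptor that inhibits insulin receptor signalling. Its values were 21.4, 22.4, 19.3, 20.6 and 20.4 CPM under DMSO, and 29.8, 24.4, 25.3, 24.5 and 24.5 CPM under BPS. It rose, with an SE of 0.06 on a log2 fold change of 0.305 (edgeR, adjusted p = 0.0149). Rheb encodes the small GTPase that activates mTORC1. It gave 119.9, 119.9, 123.9, 119.3 and 125.2 CPM under DMSO, and 132.0, 128.9, 130.3, 129.1 and 129.9 CPM under BPS. This rise had a log2 fold change of 0.10 and an SE of 0.02 (edgeR, adjusted p = 0.0112). Jak2, the gene of the kinase at the growth hormone receptor, fell. It gave 141.9, 136.7, 143.0, 141.1 and 137.4 CPM under DMSO, and 131.8, 132.2, 131.4, 133.3 and 130.3 CPM under BPS. Here the log2 fold change was -0.09 and the SE 0.02 (edgeR, adjusted p = 0.0139). The groups did not overlap for these 3 of the 47 tested genes and overlapped for the rest, where 6.9% of all genes tested did not overlap. When transcripts were tested without summing, none of the pathway genes was called, and with exact version matching Jak2 could not be tested.

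Neither main receptor substrate was called. Irs1 stood at 50.4 ± 1.16 and 50.7 ± 2.29 CPM and Irs2 at 15.7 ± 0.433 and 15.8 ± 1.45 CPM (SD, n = 5 each), with adjusted p = 0.928 and 0.945 by edgeR. Of 17 genes of the PI3K, AKT and mTOR group, Rheb alone was called, with 6 positive and 11 negative fold changes. With exact version matching Rptor, which encodes a subunit of mTORC1, was called as well. None of the 3 tested FOXO genes or the 3 genes of IGF2 mRNA-binding proteins was called. The growth hormone receptor gene Ghr averaged 171.3 ± 7.59 CPM under DMSO and 186.7 ± 12.5 CPM under BPS, which was not called (edgeR, adjusted p = 0.144).

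**Figure D5:**
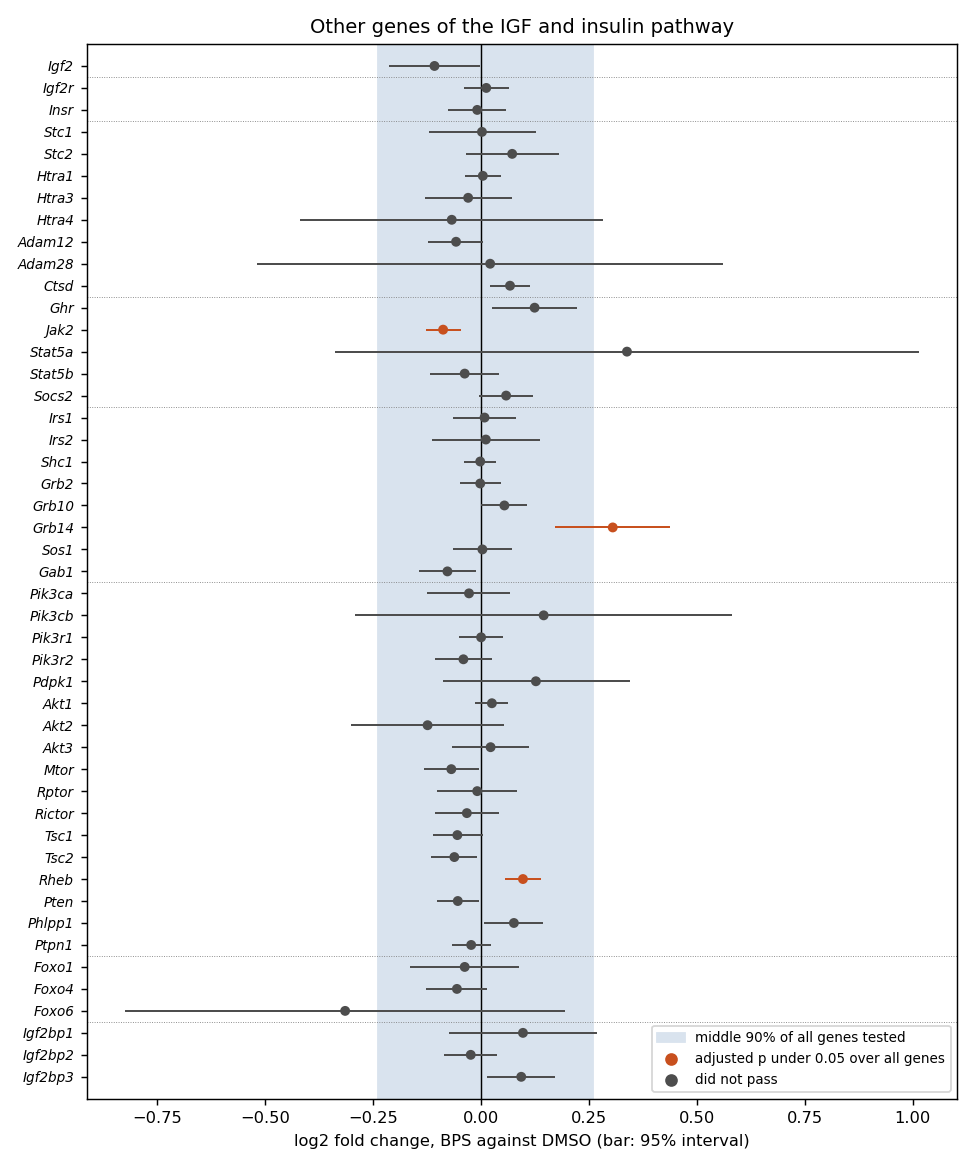
Log2 fold change of BPS against DMSO (horizontal axis) with its 95% interval for the 47 tested genes of the wider pathway, in groups parted by dotted lines: ligand, receptors, protease inhibitors and proteases, growth hormone input, adaptors, PI3K to mTOR, FOXO and IGF2 mRNA-binding genes. Coloured points are Jak2, Grb14 and Rheb; the shaded band holds the middle 90% of all genes tested.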

How the data were processed

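RNA was sequenced from 10 preadipocyte libraries, 5 per group. Per the labels' protocols, RNA was column-purified and a directional kit was used. The authors deposited estimated counts per RefSeq transcript made with kallisto 0.42.4, per the submitters' processing notes. The program splits shared reads among similar transcripts. Index, genome build and strand setting are not given in the sources used here.

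Accessions were matched without version to a RefSeq table (GRCm38.p6, used for names), which covered 93.1% of counts. Counts were summed per gene and rounded. edgeR's filterByExpr, TMM factors (0.9854 to 1.008) and quasi-likelihood test were used without covariates, with Benjamini-Hochberg adjustment over 14597 genes and a threshold of 0.05. SEs are the unshrunken log2 fold change over the root of F. Chi-square over degrees of freedom between replicates of a group was 4.13 to 8.77, where sampling alone gives about 1, so none was treated as a copy. On simulated counts for this comparison (14482 genes tested), 74.6% of seeded log2 changes of 0.3, 98.5% of 0.6 and 100% of 1 were recovered. Of the calls there, 4.71% were not seeded. Every simulated gene had the same biological coefficient of variation, 0.0588, and genes with the lowest counts were not seeded. The rates can therefore be too high for genes with few counts or more spread between replicates, such as Igfbp3 and Pappa.

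Members, lists and motifs were chosen with earlier results of these data known. All members were named. Of the pathway list, called genes and Igf2, Igf2r, Insr, Stc1 and Stc2 were to be named, and the 3 genes most like the called members with the largest rise and fall. Other genes named here serve as examples chosen after their values were seen. Alternatives were 3 scalings, 2 filters, DESeq2, limma-voom, a replicate block, exact version matching, unsummed transcripts and leaving out each library. Tools were edgeR 4.0.16, DESeq2 1.42.0 and limma 3.58.1 in R 4.3.3, and Python 3.11.15.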

Additional observations from a re-analysis of the deposited data

Results flagged for a closer look

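In 36 groups of 5 values (10 IGF axis genes and 8 pathway genes, each in both groups), Dixon's test at 95% singled out 1 library in each of 3, and chance alone does so in about 1 group in 20. Igf1 stood at 23.5 CPM in DMSO replicate 3, while the remaining DMSO values were 19.7 to 20.6 CPM. Igfbp5 stood at 184.8 CPM in DMSO replicate 4 and at 144.4 to 152.4 CPM in the others, and its rise was called with and without that library. Grb14 stood at 29.8 CPM in BPS replicate 1 and at 24.4 to 25.3 CPM in the others, and it was also called without it.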

How the results depend on the processing

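The number of IGF axis genes called was 3. It was 5 in the DESeq2 Wald test, which added Igf1r and Pappa, and 1 (Igfbp7) when transcripts were tested without summing, which splits the counts and raises the number of tests. It was 3 to 4 when single libraries were left out, with all 3 original genes among them each time. The pathway list gave 3 calls, 0 with unsummed transcripts and 3 to 4 without single libraries. With the replicate block it was 2 of each, and Igfbp5 (log2 fold change 0.297) and Jak2 (-0.087) were not called. Deviations from the group mean, correlated between libraries that share a replicate number, gave 0.1, 0.00384, -0.067, 0.072 and -0.078. The numbers were therefore not taken as pairs. With exact version matching 2 of 8 tested IGF axis genes were called, and Igfbp4 and Pappa2 could not be tested. No scaling moved the median of all genes by more than 0.014 on the log2 scale. Over all genes 712 of 14597 were called (4.88%), against 6.52% in the DESeq2 Wald test. It was 328 of 11761 (2.79%) with exact version matching and 374 (2.56%) with the replicate block. Without single libraries 449 to 774 were called (3.06% to 5.27%). The settings thus also moved the calls over all genes, and nothing about the IGF axis genes is read from their changing number. Of the 712 calls 62.8% were higher, against 45.9% of those with library size alone.

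Fold changes under the alternatives were computed for 18 genes, the 10 IGF axis genes and 8 of the pathway. Of these, Igf1, Igf2r, Insr and Stc1 changed sign, and none of the 4 was called under any gene-level alternative. Igf1 had a log2 fold change of -0.024 with exact version matching, and -0.038 to 0.061 without single libraries. Igf2r had -0.0026 with library size alone, and -0.00029 to 0.026 without single libraries. Insr ran from -0.027 to 0.0032 without single libraries. Stc1 had -0.012 with library size alone, -0.0014 with exact version matching, and -0.028 to 0.038 without single libraries. Among the 10 IGF axis genes, depth limits Pappa2 and Igfbp2 most, at 29 to 66 counts per library.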
